A study of Mus musculus with 16 samples.

Results

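The 9 genes described here encode the enzymes that make serine from a glycolytic intermediate and those that pass carbon from serine to folate: Phgdh, Psat1, Psph, Shmt1, Shmt2, Mthfd1, Mthfd2, Mthfd1l and Aldh1l2. They were chosen by name, each through the probe set of the array that carries its symbol alone, and all 9 were among the 22180 genes measured. Expression was read on 16 arrays of mouse dendritic cells, grown from the bone marrow of male C57/B6 mice for 10 days with GM-CSF at 20 ng/ml and then treated for 24 h. The 4 groups of 4 arrays were mock-treated cells (mock), cells given PA at 0.5 mM bound to bovine serum albumin (BSA, molar ratio 6 to 1), cells given IMQ, and cells given IMQ and PA together. PA is taken to be palmitic acid, a saturated fatty acid. IMQ is taken to be imiquimod, which activates the endosomal RNA sensor TLR7. IMQ is given at 3 uM in one label and at 3 ug/ml in another, and whether mock cells received albumin is not stated in the sources used here. All groups shared a medium with 10% fetal calf serum, 2 mM glutamine and 4.5 g/L glucose. The labels call the replicates biological without tying them to separate animals or cultures, so each p-value reflects array-to-array spread alone, which may be technical. The comparisons share arrays and are not independent of each other.

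Serine synthesis leaves glycolysis at 3-phosphoglycerate, which Phgdh oxidises, Psat1 transaminates with glutamate and Psph dephosphorylates to serine. Serine hydroxymethyltransferase (Shmt1 in the cytosol, Shmt2 in mitochondria) then moves a carbon from serine to tetrahydrofolate and leaves glycine. In mitochondria Mthfd2 oxidises that carbon to the formyl level, Mthfd1l releases it as formate for export, and Aldh1l2 burns it to carbon dioxide with the production of NADPH. In the cytosol the trifunctional Mthfd1 takes formate back onto folate for purine and thymidylate synthesis. Activated myeloid cells are known to draw on this pathway for glutathione and methylation, and several of its genes are textbook targets of the transcription factor ATF4.

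Values are log2 RMA levels, so a difference of 1 is a doubling. A gene was called where limma's Benjamini-Hochberg adjusted p over all 22180 genes was under 0.05, and changes are given with the standard error of the fit. A level under 4.94 is termed dim, being below the 95th percentile of 1390 odorant and vomeronasal receptor genes. By that measure Shmt1 was dim on average in all 4 groups and Aldh1l2 in mock and PA, while the other 7 genes were above it on every array. All 9 measured dendritic cell markers were above the dim level in every group, among them H2-Ab1, a class II gene (mean 12.32 in mock), and Zbtb46, a factor of conventional dendritic cells (5.47). The 9 measured macrophage markers were above it too. All 6 measured lymphocyte markers were dim in every group, as were Ly6g, Mpo, Camp, Ltf and Retnlg among 9 neutrophil markers. The neutrophil list was mixed, as Elane, S100a8 (mean 6.40), S100a9 and Ngp were above the dim level in mock. In mock 7 of 8 mast cell, basophil and eosinophil markers were dim, with Kit at 6.78. Of 5 plasmacytoid dendritic cell markers 2 were dim in mock (Bst2 read 10.49), and of 5 fibroblast markers 2 were. The arrays were of bulk RNA, in which fewer cells of a type and less RNA per cell cannot be told apart. Among the arrays of cells not given IMQ, 5 (mock replicates 1 to 3 and PA replicates 3 and 4) stood apart in inflammatory genes. Il6 read at least 11.86 with IMQ, at most 4.32 on the other 3 arrays without it and between 7.43 and 8.22 on these 5. Results that rest on those arrays are therefore also given without them, a fit that keeps 1 mock and 2 PA arrays and takes the lone mock array to vary like the other groups.

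RefSeq promoter sequence (assembly GRCm38.p6) was found for 8 of the 9 genes. The 150 bases before the start site of 4 of them are shown because these genes split in their response to PA: Mthfd2, Shmt2 and Phgdh were lower and Psat1 higher when PA was added to IMQ. Each reads 5′ to 3′ on the minus strand, with CCAAT, or ATTGG where the box lies on the other strand, in capitals. They lie at chr6:83317605-83317754 for Mthfd2 (a start inside the span that RefSeq gives the gene), chr10:127522445-127522594 for Shmt2, chr19:15925060-15925209 for Psat1 and chr3:98339970-98340119 for Phgdh.
Mthfd2: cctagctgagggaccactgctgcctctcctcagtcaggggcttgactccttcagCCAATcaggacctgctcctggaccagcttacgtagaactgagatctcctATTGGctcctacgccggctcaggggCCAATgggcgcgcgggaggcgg
Shmt2: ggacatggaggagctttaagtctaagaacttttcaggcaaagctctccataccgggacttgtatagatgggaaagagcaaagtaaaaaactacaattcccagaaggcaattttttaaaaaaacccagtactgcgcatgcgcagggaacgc
Psat1: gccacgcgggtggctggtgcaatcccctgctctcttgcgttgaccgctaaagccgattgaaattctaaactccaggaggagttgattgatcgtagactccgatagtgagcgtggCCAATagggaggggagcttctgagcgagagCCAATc
Phgdh: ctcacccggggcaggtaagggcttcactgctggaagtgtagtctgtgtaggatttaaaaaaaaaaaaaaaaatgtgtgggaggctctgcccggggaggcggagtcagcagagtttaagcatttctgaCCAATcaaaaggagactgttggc
In the whole window of 250 bases, searched on both strands, CCAAT was found in 6 of the 8 promoters (at 3 places in Mthfd2 and at none in Shmt2 or Mthfd1l) and in 33.8% of all 32851 promoters. TGATGNAAT, a form of the composite site that ATF4 and C/EBP factors bind, was in 0 of the 8 and 0.816% of all. CACGTG, the E-box, was in 0 of the 8 and 6.02% of all, and TGACNNNGC, the antioxidant response element, was in Phgdh alone and 10.2% of all. CCAAT was added to the search after the sequences had been seen, no match overlapped another, and a match is a description of the sequence only.

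IMQ alone raised 7 of the 9 genes and lowered 1, against 34.8% of all genes called, 17.0% higher and 17.9% lower. The median change of the 9 was 0.54, beside 0.01 over all genes. Among the 9, the rises lay in serine synthesis and in the mitochondrial enzymes. Of their cytosolic folate enzymes Mthfd1 was lower, and Shmt1, which was dim, was not called. Folate genes outside the 9 did not all follow this split: Tyms and Mthfs rose, and the mitochondrial folate carrier Slc25a32 fell, as given below.

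Mthfd2, the mitochondrial dehydrogenase and cyclohydrolase, rose most among the genes that were above the dim level in both groups. It read 8.55, 8.45, 8.53 and 8.25 in mock replicates 1 to 4 and 10.43, 10.48, 10.47 and 10.34 with IMQ, so the lowest IMQ array stood 1.79 above the highest mock array. That is a 3.95-fold rise (log2 change 1.98 ± 0.06, limma adjusted p = 6.89e-13), which placed Mthfd2 at rank 163 of 22180 genes. Shmt2, which feeds it with methylene-folate, read 7.68, 7.61, 7.96 and 7.79 in mock and 8.86, 8.83, 8.89 and 8.66 with IMQ. The groups did not overlap, and Shmt2 rose 2.07-fold (1.05 ± 0.07, adjusted p = 8.9e-09). Mthfd1l, the last mitochondrial step before formate leaves, read 6.52, 6.50, 6.94 and 6.87 in mock and 7.24, 7.20, 7.35 and 7.21 with IMQ, a smaller rise of 0.54 ± 0.10 (adjusted p = 0.000265). Its mock arrays fell into a lower and a higher pair, both below every IMQ array.

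Aldh1l2, which oxidises formyl-folate in mitochondria, went from dim to clearly measured. Its mock arrays read 4.79, 4.62, 4.28 and 4.29 and its IMQ arrays 6.28, 6.30, 6.50 and 6.16. The measured change was 1.82 ± 0.11 (adjusted p = 1.59e-09). Since the mock mean of 4.49 was dim, the rise is also given from the dim level itself, as at least 2.59-fold.

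All 3 genes of serine synthesis rose. Phgdh, the first and committed step, read 5.38, 5.38, 5.41 and 5.74 in mock and 6.32, 6.65, 6.42 and 6.29 with IMQ, and rose 1.92-fold (0.94 ± 0.14, adjusted p = 3.97e-05). The mock array that read highest, replicate 4, was the mock array with little inflammatory signal, and without the 5 arrays the rise was 0.67 and not called (adjusted p = 0.0593). Psat1 read 5.99, 5.97, 6.06 and 6.04 in mock against 6.59, 6.41, 6.39 and 6.41 with IMQ, a rise of 0.43 ± 0.06 (adjusted p = 1.29e-05). Psph, the last step, read 6.27, 5.94, 6.06 and 6.15 against 6.54, 6.47, 6.58 and 6.37, a rise of 0.39 ± 0.09 (adjusted p = 0.00213). Neither pair of groups overlapped, though the gap was only 0.10 for Psph. Psat1 rose by less than Phgdh, with a difference between their changes of -0.51 ± 0.13 (exact permutation test of 4 against 4 arrays, two-sided, p = 0.0286, the smallest this design allows, 0.0327 adjusted over 8 such pairs).

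Mthfd1, the cytosolic counterpart of the mitochondrial enzymes, fell. It read 6.83, 7.02, 6.95 and 7.03 in mock and 6.43, 6.38, 6.26 and 6.31 with IMQ, a log2 change of -0.61 ± 0.06 (adjusted p = 1.7e-07) with no overlap. Shmt1, the cytosolic hydroxymethyltransferase, read 4.83 to 5.11 in mock and 4.70 to 4.95 with IMQ, overlapping and dim, and was not called (-0.08 ± 0.08, adjusted p = 0.462). The change of Mthfd2 exceeded that of Mthfd1 by 2.60 ± 0.12 (exact permutation p = 0.0286, adjusted 0.0327). Along with Mthfd1, all 14 measured cell cycle genes fell with IMQ, the log2 of their summed level going from 11.48 to 11.61 in mock to 10.58 to 10.69 with IMQ, and their part in the fall of Mthfd1 was not tested. Macrophage markers moved as well, with 6 of 9 lower and 3 higher and the log2 of the sum going from 13.60 to 13.70 to 13.34 to 13.42. Of the 9 dendritic cell markers 7 fell and 2 rose, or 4 and 2 without the 5 arrays. Of 9 neutrophil markers 2 rose and 1 fell, 7 of them being dim with IMQ, and S100a8, the brightest, went from a mean of 6.40 in mock to 7.92. Of 5 fibroblast markers 1 was called, and Dcn, named after its values were seen, went from 4.43 to 7.54. Among all genes 17.9% were lower and 17.0% higher with IMQ, and the part of any of these lists in the results was not tested.

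Without the 5 arrays, 6 genes were higher and 1 lower with IMQ, Phgdh being the one lost. The change of Mthfd2 was then 2.18, of Aldh1l2 2.02, of Shmt2 1.03, of Psat1 0.41, of Mthfd1l 0.38, of Psph 0.34 and of Mthfd1 -0.68, all called.

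**Figure D1:**
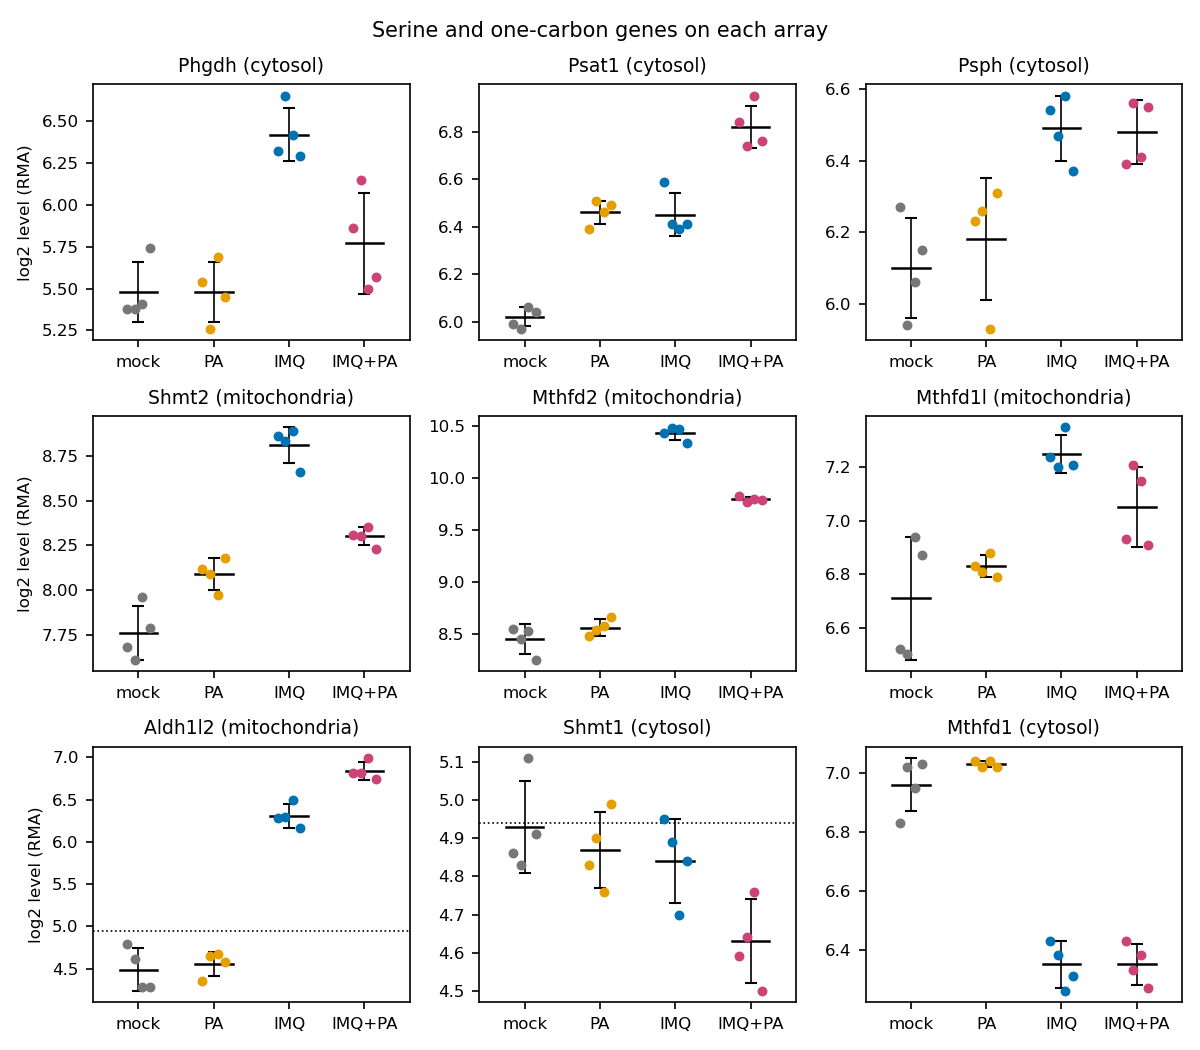
Log2 RMA level of each gene on the 16 arrays, 1 panel a gene, with 4 arrays (points), the mean (bar) and the SD (whisker) for mock, PA, IMQ and IMQ+PA. The dotted line in the Aldh1l2 and Shmt1 panels is the dim level of 4.94, axes differ between panels and do not start at 0, and the IMQ arrays of Mthfd2 sit between 10.34 and 10.48 while the mock arrays sit between 8.25 and 8.55.

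PA alone moved few of the 9 genes. Psat1 and Shmt2 were called higher, 2 of 9 against 1.49% of all genes called, 1.05% higher and 0.442% lower, and 0 were lower. Psat1 was the clearer: it read 5.99, 5.97, 6.06 and 6.04 in mock and 6.39, 6.51, 6.46 and 6.49 with PA, a gap of 0.33 between the groups and a rise of 1.36-fold (0.45 ± 0.06, adjusted p = 0.000589). Without the 5 arrays its change was 0.41 but not called (adjusted p = 0.407), with 1 mock and 2 PA arrays left. In Shmt2 the PA arrays read 8.12, 8.09, 7.97 and 8.18 against 7.68, 7.61, 7.96 and 7.79 in mock, a gap of 0.01. Its rise of 0.33 ± 0.07 (adjusted p = 0.0382) was called, but the call was lost when only PA and mock arrays were fitted (adjusted p = 0.151), without the 5 arrays (0.32, adjusted p = 0.478), and without any 1 of mock replicates 1, 2 and 4 (adjusted p = 0.122, 0.119 and 0.0726) and PA replicates 1, 2 and 4 (0.0921, 0.0813 and 0.126).

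The other 7 genes were not called with PA alone. Phgdh had a mean of 5.48 in both groups, with PA arrays at 5.54, 5.26, 5.69 and 5.45. The 95% interval of its change ran from -0.29 to 0.30. Mthfd2 read 8.48, 8.54, 8.58 and 8.66 with PA, overlapping mock (0.12, 95% interval -0.02 to 0.25). Psph changed by 0.08 (-0.11 to 0.27), Mthfd1 by 0.07 (-0.05 to 0.19), Mthfd1l by 0.12 (-0.08 to 0.33), Aldh1l2 by 0.07 (-0.17 to 0.31) and Shmt1 by -0.06 (-0.22 to 0.11). The last pair were dim in both groups.

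When PA was added to IMQ the pathway split. Mthfd2, Shmt2 and Phgdh fell, Psat1 and Aldh1l2 rose, and Psph, Mthfd1, Mthfd1l and Shmt1 were not called. Among all genes 21.1% were called in this comparison, 9.44% lower and 11.6% higher, against 3 and 2 of the 9. These calls do not rest on the 5 arrays, which are in neither group, and all 5 were kept when any single array of these groups was left out.

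Mthfd2 went from 10.43, 10.48, 10.47 and 10.34 with IMQ to 9.83, 9.77, 9.80 and 9.79 with both, a fall to a level that varied by an SD of only 0.02. The log2 change was -0.63 ± 0.06 (1.55-fold lower, adjusted p = 1.71e-06), with no overlap. Shmt2 read 8.31, 8.30, 8.35 and 8.23 with both against 8.86, 8.83, 8.89 and 8.66 with IMQ, a change of -0.51 ± 0.07 (adjusted p = 9.2e-05). Both mitochondrial genes were left above mock: Mthfd2 by 1.35 ± 0.06 and Shmt2 by 0.54 ± 0.07. Phgdh read 5.86, 6.15, 5.50 and 5.57 with both, the widest spread of the 9 genes in any group (SD 0.30), against 6.29 to 6.65 with IMQ. It changed by -0.65 ± 0.14 (adjusted p = 0.00264), without overlap, and against mock it was not called (0.29 ± 0.14, adjusted p = 0.12). That last comparison was called when IMQ and PA replicate 3 was left out (0.38, adjusted p = 0.0479).

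Psat1, which acts directly after Phgdh, moved the other way. Its arrays with both stimuli read 6.84, 6.74, 6.95 and 6.76, above the IMQ arrays at 6.39 to 6.59, a rise of 0.37 ± 0.06 (adjusted p = 0.000146). Against mock the rise was 0.81 ± 0.06 (adjusted p = 7.61e-09), and the change with PA was not shown to depend on IMQ (interaction -0.07 ± 0.08, adjusted p = 0.653). Psph stayed within its IMQ range, at 6.39, 6.56, 6.41 and 6.55 (change -0.01, 95% interval -0.20 to 0.17). The difference between the responses of Psat1 and Phgdh was 1.02 ± 0.21 (exact permutation p = 0.0286, adjusted 0.0327).

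Aldh1l2 also rose further, to 6.82, 6.81, 6.99 and 6.74 from 6.28, 6.30, 6.50 and 6.16 (0.53 ± 0.11, adjusted p = 0.00265), with no overlap. With both stimuli its measured change from mock was 2.34 ± 0.11 (adjusted p = 6.34e-11), and at least 3.73-fold from the dim level. On adding PA to IMQ, where both genes were above the dim level, the changes of Aldh1l2 and Mthfd2 differed by 1.16 ± 0.07 (exact permutation p = 0.0286, adjusted 0.0327). Mthfd1l read 6.93, 7.21, 7.15 and 6.91 with both, overlapping its IMQ arrays, and was not called (-0.20 ± 0.10, adjusted p = 0.18).

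In the cytosol, Mthfd1 read 6.43, 6.33, 6.38 and 6.27 with both, the same mean of 6.35 as with IMQ (change 0.00, 95% interval -0.11 to 0.12). Mthfd2 fell relative to it by 0.64 on the log2 scale (difference -0.64 ± 0.05, exact permutation p = 0.0286, adjusted 0.0327). Shmt1 read 4.59, 4.64, 4.76 and 4.50, all dim and overlapping the IMQ arrays (-0.22 ± 0.08, adjusted p = 0.0569), and was called without IMQ replicate 3 (-0.27, adjusted p = 0.0256) and without IMQ and PA replicate 3 (-0.27, adjusted p = 0.0315). The macrophage markers moved here too, 7 of 9 lower and 2 higher with the log2 of the sum at 12.91 to 12.96. Of 14 cell cycle genes 5 were lower and 3 higher, and of 9 dendritic cell markers 3 were lower and 0 higher. Among all genes 9.44% were lower and 11.6% higher, and the part of any of these lists was not tested.

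**Figure D2:**
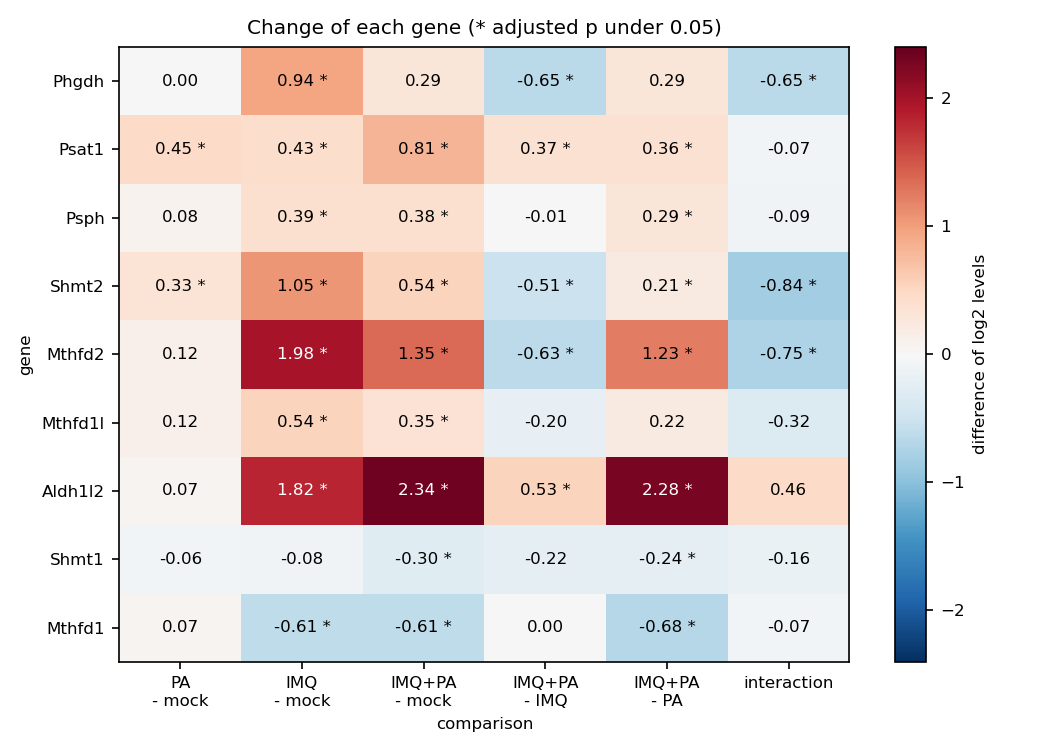
Difference of mean log2 levels of each gene (rows) in the 5 comparisons and the interaction (columns), from blue (lower) to red (higher), and a star for a limma adjusted p under 0.05. Where PA was added to IMQ, Phgdh, Shmt2 and Mthfd2 are negative and Psat1 and Aldh1l2 positive, and the comparisons share arrays.

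Whether the effect of PA depended on IMQ was tested as the interaction, the change with PA in the presence of IMQ minus that in its absence. It was called for 3 of the 9 genes, all lower, against 13.6% of all genes called, 7.01% lower and 6.58% higher. Shmt2 rose by 0.33 ± 0.07 with PA alone and changed by -0.51 ± 0.07 with PA on top of IMQ, an interaction of -0.84 ± 0.11 (adjusted p = 4.26e-05). For Mthfd2 the interaction was -0.75 ± 0.09 (adjusted p = 2.48e-05). Without the 5 arrays both held, at -0.83 (adjusted p = 0.00303) and -0.89 (adjusted p = 0.000627).

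The third call, Phgdh at -0.65 ± 0.19 (adjusted p = 0.037), was not stable. Without the 5 arrays its interaction was -0.30 (adjusted p = 0.658). It was also lost on leaving out any 1 of mock replicates 1 to 3 (adjusted p = 0.0722, 0.0679 and 0.0657), PA replicates 1, 3 and 4 (0.0672, 0.0764 and 0.0547), IMQ replicates 2 and 3 (0.0781 and 0.0569) and IMQ and PA replicates 3 and 4 (0.0766 and 0.0727). Aldh1l2, dim in mock and PA, had an interaction of 0.46 ± 0.16 (adjusted p = 0.0718), not called here but called with dim genes left out (adjusted p = 0.0387), with a variance trend (0.0415) and without mock replicate 3, mock replicate 4 or IMQ replicate 3 (0.0395, 0.0416 and 0.0461). Mthfd1l was at -0.32 ± 0.14 (adjusted p = 0.154), and Psph, Mthfd1 and Shmt1 lay between -0.16 and -0.07, none called.

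**Figure D3:**
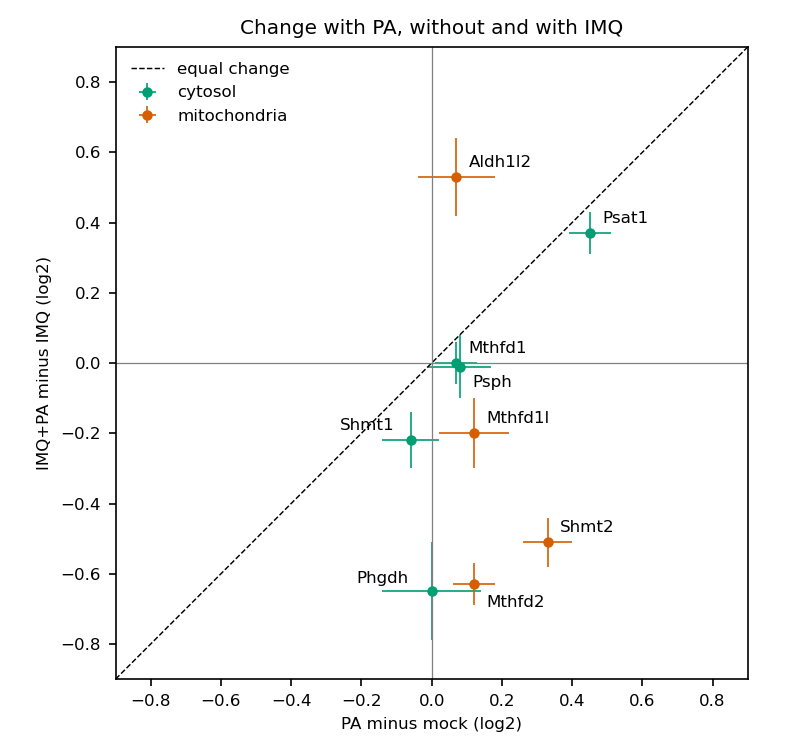
Change with PA in cells without IMQ (horizontal) and with IMQ (vertical), as differences of mean log2 levels with the standard error of the fit, for cytosolic (green) and mitochondrial (orange) enzymes. The dashed line marks equal change: Psat1 lies near it at 0.45 and 0.37, while Shmt2 at 0.33 and -0.51 and Mthfd2 at 0.12 and -0.63 lie far below.

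In the comparison of both stimuli with PA alone, IMQ raised 5 of the 9 genes and lowered 2, beside 35.3% of all genes called, 16.8% higher and 18.5% lower. Aldh1l2 rose most (2.28 ± 0.11, at least 3.73-fold from the dim level), followed by Mthfd2 (1.23 ± 0.06, adjusted p = 1.53e-10) and Psat1 (0.36 ± 0.06, adjusted p = 7.94e-05). Psph rose by 0.29 ± 0.09 (adjusted p = 0.0142), but was not called without PA replicate 3, its lowest PA array at 5.93 (0.21, adjusted p = 0.0507). Shmt2 rose by only 0.21 ± 0.07 (adjusted p = 0.0414), lost without the 5 arrays (0.19, adjusted p = 0.0788) and without any 1 of PA replicates 1 to 3 (adjusted p = 0.059, 0.0764 and 0.128) and IMQ and PA replicates 1 to 3 (0.0801, 0.072 and 0.0987). Mthfd1 fell by 0.68 (-0.68 ± 0.06, adjusted p = 4.19e-08). Shmt1, dim in both, was called lower (-0.24 ± 0.08, adjusted p = 0.0206), but not on leaving out the 5 arrays (adjusted p = 0.0699), PA replicate 4 (0.0704) or IMQ and PA replicates 1 (0.0513) or 4 (0.0697). Phgdh (0.29 ± 0.14, adjusted p = 0.128) and Mthfd1l (0.22 ± 0.10, adjusted p = 0.0882) were not called. Without the 5 arrays 4 were higher and 1 lower.

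Against mock, the cells given both stimuli had 6 of the 9 genes higher and 2 lower, beside 36.5% of all genes called, 18.4% higher and 18.1% lower, and 5 higher and 1 lower without the 5 arrays. Beyond the values given above, Psph rose by 0.38 ± 0.09 (adjusted p = 0.00255), Mthfd1l by 0.35 ± 0.10 (adjusted p = 0.00938), Mthfd1 changed by -0.61 ± 0.06 and Shmt1 by -0.30 ± 0.08 (adjusted p = 0.00509), the last dim in both. Mthfd1l (0.18, adjusted p = 0.342) and Shmt1 (-0.28, adjusted p = 0.111) were the genes lost without the 5 arrays. Mthfd1l was also lost when only these 2 groups were fitted (adjusted p = 0.0557).

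The genes that lay closest to each other over the 16 arrays, after each was centred on its own mean, were Psph and Mthfd1l (root-mean-square difference 0.179 on the log2 scale), Shmt2 and Mthfd1l (0.207) and Psat1 and Psph (0.23). The distance is not scaled, so genes that vary little lie close more easily, and closeness need not mean a shared pattern. Psph itself varied by 0.206, Mthfd1l by 0.242, Psat1 by 0.293, Shmt2 by 0.392 and Shmt1 by 0.149. Outside the pathway, the genes closest to Mthfd2 were Ccser1 and Irak3, the latter a negative regulator of Toll-like receptor signalling (0.101 each, where Mthfd2 itself varied by 0.839). Ccser1 was dim in mock (mean 4.72) and PA (4.92). Irak3 had means of 8.91, 8.99, 11.04 and 10.36 in mock, PA, IMQ and both. Closest to Shmt2 was Cav1, which encodes caveolin (0.075), followed by Gars, a glycyl-tRNA synthetase (0.104). Closest to Psat1 was Slc39a7, a zinc carrier of the endoplasmic reticulum (0.09), and closest to Aldh1l2 was Cd80, a costimulatory ligand (0.156), which read 8.28, 8.32, 10.13 and 10.80 in the same order. Cyrib lay closest to Phgdh (0.169), Ufsp2 to Psph (0.075), Srpk2 to Mthfd1 (0.059), Uqcc2 to Mthfd1l (0.096) and R3hcc1 to Shmt1 (0.076).

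Of 12 other folate enzymes and carriers measured, IMQ raised 3 and lowered 1 (median -0.03), beside 17.0% and 17.9% of all genes. Tyms, thymidylate synthase, rose by 1.13 ± 0.10, Mthfd2l, the mitochondrial isozyme of Mthfd2, by 0.89 ± 0.09, and Mthfs by 0.57 ± 0.08. Slc25a32, the mitochondrial folate carrier, fell (-0.57 ± 0.07). Adding PA to IMQ raised Mthfd2l by a further 0.27 ± 0.09 (adjusted p = 0.0356), so the isozymes Mthfd2 and Mthfd2l changed in opposite directions. The Mthfd2l call was lost without the 5 arrays (adjusted p = 0.0633) at the same change. Aldh1l1, the cytosolic form of Aldh1l2, fell (-0.55 ± 0.10, adjusted p = 0.00062) where Aldh1l2 rose. In all, 2 of the 12 were higher and 3 lower when PA was added to IMQ, beside 11.6% and 9.44% of all genes, and 0 and 2 without the 5 arrays.

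Of 8 measured genes of glycine handling, Gcsh, the carrier protein of the glycine cleavage system, was the only one called with PA alone (0.49 ± 0.08, adjusted p = 0.00521), and the call was lost without the 5 arrays (0.65, adjusted p = 0.225). Among all genes 1.49% were called with PA alone and 21.1% when PA was added to IMQ. Gldc, the decarboxylase of the glycine cleavage system, was the only 1 of the 8 called in the latter comparison (adjusted p = 1.67e-05). Its mean was dim with IMQ at 4.48 and 5.03 with both, at least 1.06-fold higher from the dim level. Of 11 serine carriers, 4 rose and 1 fell with IMQ (17.0% and 17.9% of all genes), and 4 rose and 2 fell on adding PA (11.6% and 9.44%). Sfxn1, which carries serine into mitochondria, read 8.33, 8.34, 8.46 and 8.36 in mock, 9.14, 9.07, 9.20 and 9.10 with IMQ and 9.58, 9.65, 9.78 and 9.71 with both. It was therefore higher with IMQ than in mock (0.76 ± 0.06) and higher again with both stimuli (0.55 ± 0.06). This was unlike Shmt2, which acts on the serine that Sfxn1 delivers. Slc1a5, a neutral amino acid exchanger that also carries glutamine, was called higher with PA alone (0.25 ± 0.06, limma adjusted p = 0.0461), a change of 0.13 without the 5 arrays. It was not called with IMQ (0.08 ± 0.06) and fell when PA was added to IMQ (-0.73 ± 0.06, adjusted p = 1.26e-07). Its interaction was -0.98 ± 0.08 (limma adjusted p = 7.22e-07), and -0.86 without the 5 arrays.

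In the branch from serine to glutathione, Cth, the last enzyme of transsulfuration, followed the direction of Mthfd2. It read 4.86, 4.39, 4.23 and 4.52 in mock, 6.55, 6.44, 6.66 and 6.29 with IMQ and 5.05, 5.51, 5.37 and 4.83 with both. From a dim mock mean it rose by 1.99 ± 0.17 as measured, at least 2.92-fold from the dim level, and it fell by 1.29 on adding PA (-1.29 ± 0.17, adjusted p = 2.81e-05). Gclc, the catalytic subunit that starts glutathione synthesis, was not called with IMQ (0.10 ± 0.06) and rose by 1.70 ± 0.06 on adding PA (adjusted p = 2.22e-11), with Gss (0.79 ± 0.06) and Gclm (0.77 ± 0.05). Of the 5 genes of this branch 3 rose and 1 fell in that comparison, beside 11.6% and 9.44% of all genes. PA alone raised Gclc (0.35 ± 0.06) and Gclm (0.32 ± 0.05), neither called without the 5 arrays (adjusted p = 0.619 and 0.34).

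Of 11 measured purine synthesis genes, the pathway that uses formyl-folate from Mthfd1, IMQ lowered 5 and raised 3, or 4 and 1 without the 5 arrays, beside 17.9% and 17.0% of all genes. Atic, which uses formyl-folate in the second of the formyl transfers, fell (-0.66 ± 0.06), as did Gart, which carries out the first (-0.60 ± 0.08, and a further -0.28 ± 0.08 on adding PA). Impdh1, of guanine nucleotide synthesis, was higher with IMQ than in mock (0.35 ± 0.08) and higher again with both stimuli (0.94 ± 0.08). The first of these was not called without the 5 arrays (0.25). In the methionine cycle, 3 of 8 rose and 0 fell when PA was added to IMQ (11.6% and 9.44% of all genes; 2 rose without the 5 arrays), led by Mat2b, the regulatory subunit of methionine adenosyltransferase (0.60 ± 0.05), while Mtr, methionine synthase, fell with IMQ (-0.44 ± 0.07). Of 7 other serine-using enzymes 3 fell and 1 rose with IMQ (17.9% and 17.0% of all genes), led by Sptlc1, of sphingolipid synthesis (-0.43 ± 0.05). The other falls were small: Ptdss1 changed by -0.25 ± 0.05 (-0.25 without the 5 arrays) and Sptlc2 by -0.14 ± 0.04 (-0.09 without them). The median change of the 7 was also small, at -0.14, and -0.09 without the 5 arrays. Upstream, 7 of 9 measured glycolysis genes rose with IMQ and 0 fell (17.0% and 17.9% of all genes; 5 rose without the 5 arrays), led by the glucose transporter Slc2a1 (0.71 ± 0.04) and hexokinase 2 (Hk2, 0.70 ± 0.04). On adding PA 2 of these 9 fell and 0 rose, led by the liver-type phosphofructokinase Pfkl (-0.32 ± 0.05); the other, Hk2 (-0.14 ± 0.04), was not called without the 5 arrays (adjusted p = 0.0564).

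Of the 10 listed regulators of serine genes, 5 rose and 4 fell with IMQ, or 4 and 4 without the 5 arrays, beside 17.0% and 17.9% of all genes. Atf4, which drives Phgdh, Psat1, Shmt2 and Mthfd2 in other cells, read 8.84, 8.84, 8.90 and 8.86 in mock, 9.11, 9.14, 9.19 and 9.24 with PA, 10.17, 10.21, 10.23 and 10.13 with IMQ and 10.05, 10.00, 10.00 and 9.97 with both. The groups did not overlap. Its RNA rose by 1.32 ± 0.04 with IMQ and by 0.31 ± 0.04 with PA alone (adjusted p = 0.0012, lost without the 5 arrays at 0.26, adjusted p = 0.439), and changed by -0.18 ± 0.04 on adding PA to IMQ (adjusted p = 0.00618). Ddit3, an ATF4 target and stress factor, was higher with IMQ than in mock (1.18 ± 0.07) and higher again with both stimuli than with IMQ (0.55 ± 0.07). Myc, another activator of these genes in proliferating cells, ran opposite to Mthfd2: it fell with IMQ (-1.83 ± 0.06) and rose on adding PA (0.91 ± 0.06, adjusted p = 3.29e-08). Eif2ak3, the kinase PERK upstream of ATF4, did the same (-0.73 ± 0.06 and 0.59 ± 0.06).

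**Figure D4:**
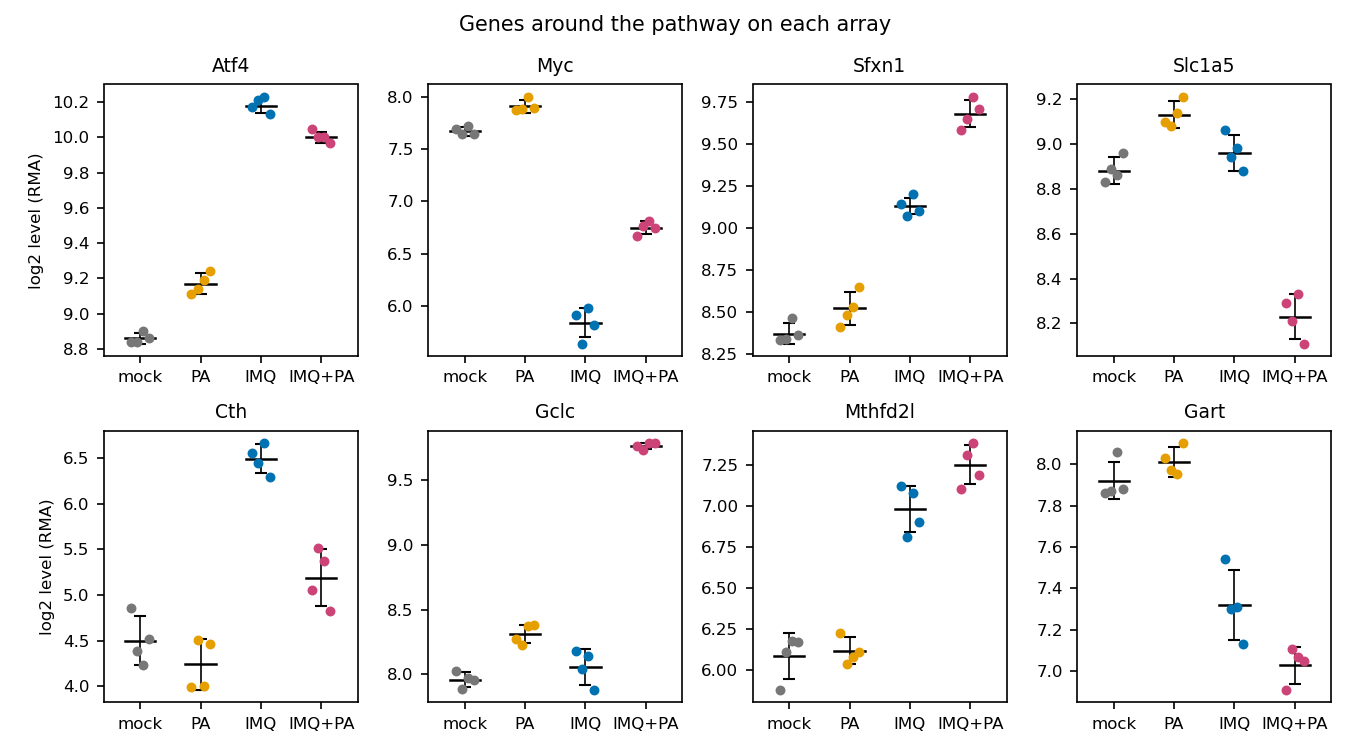
Log2 RMA level of 8 genes around the pathway on the 16 arrays, with 4 arrays (points), the mean (bar) and the SD (whisker) for each group; axes differ between panels and do not start at 0. Cth is highest with IMQ alone, Sfxn1, Gclc and Mthfd2l are highest with both stimuli, Slc1a5 and Gart are lowest with both, and Myc is lowest with IMQ alone.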

How the data were processed

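The deposited table holds log2 levels of 41345 probe sets on 16 Affymetrix 1-colour arrays (200 ng total RNA each). Per the submitters' processing notes the authors used RMA and affy, without versions; RMA corrects background, equalises arrays by quantiles and summarises probes. No genome build is given in the sources used here. Array medians lay between 4.99 and 5.06. Of the probe sets 23521 had 1 symbol in the platform annotation, 1814 several and 16010 none listed; only the first kind was used, with the highest-mean probe set for each of 1082 genes that had several. All 9 genes had 1.

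All arrays entered 1 limma 3.58.1 model with a mean for each of the 4 groups (R 4.3.3, eBayes, two-sided, 12 residual degrees of freedom) over 22180 genes with no filter, and was tested on simulated data. Arrays carry no read depth, so their number limits precision. Deviations of same-numbered arrays of different groups had a median correlation of 0.0057 over 24 pairs (4 over 0.1, highest 0.1728). For differently numbered arrays the median was -0.0039 over 72 pairs (2 over 0.1, highest 0.1009). Whether the numbers mark paired arrays was not tested. The main model used no pairing, and a fit with the replicate number as a block is given below. The genes, lists and inflammatory arrays were chosen with earlier results of these data known. List genes were named by size of change among those called, at most 3 in the direction with more calls and 1 in the other, and neighbours by smallest root-mean-square difference. Of the listed genes those without a single-symbol probe set were not analysed here.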

Additional observations from a re-analysis of the deposited data

Results flagged for a closer look

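For Shmt2, Mthfd2 and Phgdh the change with PA differed between cells with and without IMQ, by the limma interaction: -0.84, -0.75 and -0.65. The calls of Shmt2 and Mthfd2 held in every alternative fit that was run, and that of Phgdh was lost in 10 of the 16 fits that left out an array. In each group of 4 arrays the highest and lowest values were compared with the rest, over 36 groups of the 9 genes, and chance alone marks about 1 group in 20. Phgdh in mock was marked because replicate 4 read 5.74 against 5.38 to 5.41 (gap over range 0.901), and Psat1 with IMQ because replicate 1 read 6.59 against 6.39 to 6.41 (0.90).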

How the results depend on the processing

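Over the 9 genes and 6 comparisons, 920 of 975 values under alternatives kept their side of the threshold, 44 lost a call and 11 gained one. The sign differed in 22 values, 0 of them called in either fit; Phgdh with PA alone, at 0.00, was -0.35 without the 5 arrays, and on adding PA to IMQ Psph turned from -0.01 to 0.01 with array medians set equal and Mthfd1 from 0.00 to -0.05 after repeated quantile normalization. With PA alone, the members called went from 2 to 1 when only the groups compared were fitted, to 1 with the inflammatory level as a covariate, to 0 without the 5 arrays, and to 1 to 2 on leaving out each array in turn. The genes called with PA alone, 331, became 737 with a variance trend and robust moderation, 150 with only the groups compared, 532 without dim genes, 15 without the 5 arrays (which leaves 3) and 170 to 346 on leaving out each array. The interaction count of 3015 became 1200 without the 5 arrays. With the replicate number as a block, 1 member was called with PA alone; Shmt2 lost its call there (0.33, adjusted p = 0.0693) and between both stimuli and PA (0.21, adjusted p = 0.0574), as did the Phgdh interaction (-0.65, adjusted p = 0.0668). The numbers were not shown to pair the arrays. Shmt2 between both stimuli and PA was also lost with array medians set equal (0.18, adjusted p = 0.123). Mthfd1l was called lower on adding PA to IMQ after repeated quantile normalization (-0.25, adjusted p = 0.0487). The cause of these shifts was not tested. Dim signal limits Shmt1, and Aldh1l2 without IMQ, to bounds.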
